A study of Mus musculus with 7 samples.

Results

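The CC chemokine genes Ccl3, Ccl4, Ccl5, Ccl6 and Ccl9 were followed through leukocytes of the mouse heart after myocardial infarction. They were taken by symbol as the rows present in all 7 deposited single-cell matrices, 5 of 27998 annotated genes in the CD45+ libraries and 5 of 31053 in the hashed pools. All animals were C57BL6/J mice, and infarction was made by permanent ligation of the left coronary artery. In the first experiment (males), CD45+ leukocytes that an intravenous anti-CD45.2 antibody had not stained were sorted from enzymatically digested hearts with no infarct (day 0, 5 pooled mice) or at day 1 (5 mice), day 3 (5), day 5 (5) or day 7 (3), with a step that reduced neutrophils, and each day gave 1 library. In the second (males), CD11b+ heart cells of day 1 (5 mice), day 3 (5) and day 5 (3) carried hashtag antibodies 1, 2 and 3 and were loaded as 1 pool. In the third (8 to 10 weeks old), a pool with 7 hashtags held sorted CD11b+ cells without B220, NK1.1 or Ter119. They came from blood after no surgery (3 mice), sham surgery at day 1 (3) or day 3 (3) or infarction at day 1 (5) or day 3 (5), and from infarcted hearts of day 1 and day 3 that were dissociated mechanically. The labels do not pair those 7 hashtags with conditions, so their values are given as ranges without a test.

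CC chemokines are small secreted proteins with a pair of adjacent cysteines near the amino terminus, and they attract leukocytes through G protein-coupled receptors. Ccl3 and Ccl4 are the macrophage inflammatory proteins 1-alpha and 1-beta, which activated myeloid and lymphoid cells release. Ccl5 (RANTES) is a product of activated T and NK cells. Ccl6 and Ccl9 are rodent chemokines made largely by myeloid cells. Ccr1 is a receptor for Ccl3, Ccl5, Ccl6 and Ccl9. In the infarcted heart, neutrophils arrive first, and monocytes that become macrophages follow.

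The 5 genes lie together on chromosome 11 of GRCm38, the build of the deposited counts, in a span of 139 kb with 6 protein-coding genes in the GENCODE M21 annotation. From left to right these are Ccl5 (chr11:83525778-83530518, minus strand), Ccl9 (chr11:83572919-83578636, minus), Ccl6 (chr11:83587882-83593087, minus), Rpl9-ps1, Ccl3 (chr11:83647844-83649355, minus) and Ccl4 (chr11:83662584-83664683, plus). The noncoding gene E230016K23Rik (chr11:83582056-83623693, plus) spans Ccl6 on the opposite strand. Use of strand in the counting is not given in the sources used here, and whether any of its reads were counted for Ccl6 was not tested. No run of 50 bases was shared between annotated transcripts in any of the 10 pairs of members. The 250 bases before the RefSeq start (build GRCm38.p6) are shown for Ccl3, Ccl6 and Ccl9 because these windows show where the promoters resemble each other. The Ccl6 and Ccl9 windows adjoin the GENCODE genes, but the Ccl3 window begins at 83649379, apart from the GENCODE gene end at 83649355. All distances are to the RefSeq start. Capitals mark a TATAA that begins 11 bases before the start in Ccl3, and runs of at least 12 bases shared by Ccl6 and Ccl9.
Ccl3 (chr11:83649379-83649628, minus strand): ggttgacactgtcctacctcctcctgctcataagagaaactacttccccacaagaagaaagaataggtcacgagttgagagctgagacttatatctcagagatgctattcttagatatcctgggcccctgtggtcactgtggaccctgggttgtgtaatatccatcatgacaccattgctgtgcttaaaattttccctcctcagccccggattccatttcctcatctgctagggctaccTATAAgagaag
Ccl6 (chr11:83593088-83593337, minus strand): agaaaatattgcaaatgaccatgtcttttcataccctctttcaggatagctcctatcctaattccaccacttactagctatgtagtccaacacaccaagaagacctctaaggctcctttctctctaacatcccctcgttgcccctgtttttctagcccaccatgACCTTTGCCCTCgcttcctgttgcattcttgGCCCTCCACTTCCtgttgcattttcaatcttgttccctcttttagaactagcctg
Ccl9 (chr11:83578637-83578886, minus strand): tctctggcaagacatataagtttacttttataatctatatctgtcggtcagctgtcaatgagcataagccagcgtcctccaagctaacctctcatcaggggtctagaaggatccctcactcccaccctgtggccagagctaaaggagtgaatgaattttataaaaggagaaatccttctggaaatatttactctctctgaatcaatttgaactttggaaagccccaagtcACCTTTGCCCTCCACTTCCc

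Ccl6 and Ccl9, neighbours on the minus strand, shared the 13-base run GCCCTCCACTTCC, which began 55 bases before the start in Ccl6 and 14 bases before it in Ccl9. They also shared ACCTTTGCCCTC, 86 and 20 bases before the start, and in Ccl9 both runs overlap in 1 block of 19 bases. The longest run that Ccl3 shared with either was 8 bases. A 13-base run of the Ccl6 window occurred in 47 of 32840 other promoters (0.143%). On both strands, TATAA had 2 matches in the Ccl3 window, 5 in Ccl9 and 0 in Ccl6, and 22.8% of 32841 promoters held it. Since the reverse of TATAA can overlap it, 2 pairs of the Ccl9 matches overlap. The AP-1 motif TGANTCA, which reads alike on both strands, stood 53 bases before the start of Ccl9 (6.75% of promoters), the PU.1 core GAGGAA 33 bases before that of Ccl3 on the minus strand (23.3%), and the NF-kB consensus 35 bases before that of Ccl9 on the minus strand (5.93%). The C/EBP motif TTGCNNAA (9.57% of promoters) had no match in these 3 windows. A match describes the letters and does not show a bound site. Ccl4 and Ccl5 are named only.

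After filtering, 4745 CD45+ cells, 4263 cells of the heart pool and 9999 cells of the blood and heart pool were clustered without the 5 genes, and clusters were named from marker lists. Before filtering, the library totals ran from 3737297 to 107694968 unique molecular identifiers (UMIs, counted mRNA molecules). The cells used held 3611089 to 93069824 UMIs a library. The neutrophil-like class held 426 CD45+ cells (216, 135, 40 and 28 at days 1, 3, 5 and 7) and 1479 heart pool cells (256, 1001 and 222 at days 1, 3 and 5). The monocyte/macrophage-like class held 2702 CD45+ cells (524, 245, 632, 732 and 569 at days 0, 1, 3, 5 and 7) and 2653 heart pool cells (229, 1089 and 1335). In the CD45+ libraries NK-like cells numbered 91 and T-like cells 142. Libraries shared 0 to 2 barcodes among the CD45+ libraries and 11 between the pools. One sum stood apart from its name: in the day 1 CD45+ monocyte/macrophage sum all 16 neutrophil markers were detected, at 19274 CPM together (CPM: UMIs of a gene or list scaled to a common total for every sum), against 159 to 1782 CPM in the other CD45+ days and 628 to 2152 CPM in the heart pool. Neutrophil sums held 22 to 27 of 29 monocyte/macrophage markers at 6119 to 14925 CPM together, against 18758 to 78073 CPM in the monocyte/macrophage sums.

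Ccl3 and Ccl4 were the main members in neutrophils. UMIs were summed over the cells of a class, and levels are CPM of that sum. Ccl3 in CD45+ neutrophils stood at 10706 CPM at day 1, 4933 at day 3, 7441 at day 5 and 2919 at day 7. In heart pool neutrophils it stood at 7693, 6953 and 3859 CPM at days 1, 3 and 5. Day 1 was the highest in both experiments, and the 2 day 1 values lay above both day 5 values. Per cell these levels came to 10.2 to 43.1 Ccl3 UMIs in the CD45+ libraries and 15.7 to 34.3 in the pool.

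Ccl4 in neutrophils was 20902 CPM at day 1, 4135 at day 3, 8969 at day 5 and 1506 at day 7 of the CD45+ libraries. In the heart pool it was 12690, 4710 and 3035 CPM at days 1, 3 and 5. Both day 1 values lay above every later value. In the day 1 CD45+ neutrophils Ccl4 gave 63.0% and Ccl3 32.3% of all UMIs of the 5 genes, and at day 3 Ccl3 took the larger share in both experiments, 43.6% in the CD45+ library and 57.3% in the pool.

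Monocytes/macrophages held less Ccl3. Their CD45+ levels were 1551 CPM at day 0, 4105 at day 1, 596 at day 3, 604 at day 5 and 1173 at day 7, and the heart pool gave 692, 416 and 325 CPM at days 1, 3 and 5. On each day measured in both classes neutrophils were higher. Ccl4 in the same sums was 3464, 6613, 1470, 1950 and 3040 CPM at days 0 to 7, and 1068, 928 and 750 CPM in the pool. The day 1 CD45+ sum was the highest for both genes, and it is the sum with the most neutrophil marker UMIs; the part of those UMIs in its level was not tested. At day 7 Ccl4 was higher in the monocytes/macrophages (3040 CPM) than in the 28 neutrophils (1506 CPM), a pair of values with no replicate.

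A neutrophil carried fewer UMIs in all (2617 to 4456 on average over the sums) than a monocyte/macrophage (7379 to 32697), so CPM and UMIs per cell give different pictures. Monocytes/macrophages held 5.50 to 38.7 Ccl3 UMIs per cell in the CD45+ libraries and 10.3 to 16.3 in the pool, ranges that overlap those of neutrophils. At days 1, 3 and 5 neutrophils held more Ccl3 UMIs per cell in all 6 pairs of sums, but more Ccl4 in 3 of 6. Ccl4 came to 13 UMIs per neutrophil against 16.9 per monocyte/macrophage at day 3 of the CD45+ libraries, and to 19.4 against 30.3 at day 3 and 12.3 against 23.8 at day 5 of the pool. Ccl3 was found in 87.8% of CD45+ neutrophils and 77.4% of monocytes/macrophages. After each cell was thinned to 2000 UMIs, which left out 29 and 36 shallower cells, the shares were 84.1% and 50.8%. In the heart pool the thinned shares were 77.9% and 31.9%, with 73 and 23 cells left out. B cells and erythroid cells were taken as a background. Before thinning, 34.6% of CD45+ B cells (median 2757 UMIs) and 25.5% of erythroid cells (median 9443) had a Ccl3 UMI, against medians of 2995 in neutrophils and 9006 in monocytes/macrophages. Of the 1019 B cells, 964 were from day 7 and 13 from day 1, so they describe mostly 1 library. For Ccl4 the background was higher, with 61.2% of B cells and 60.8% of erythroid cells, against 80.8% of CD45+ neutrophils and 89.9% of monocytes/macrophages. The levels of B cells at day 7 (964 cells), 132 CPM for Ccl3 and 334 CPM for Ccl4, lay below every neutrophil and monocyte/macrophage sum of the heart.

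**Figure D1:**
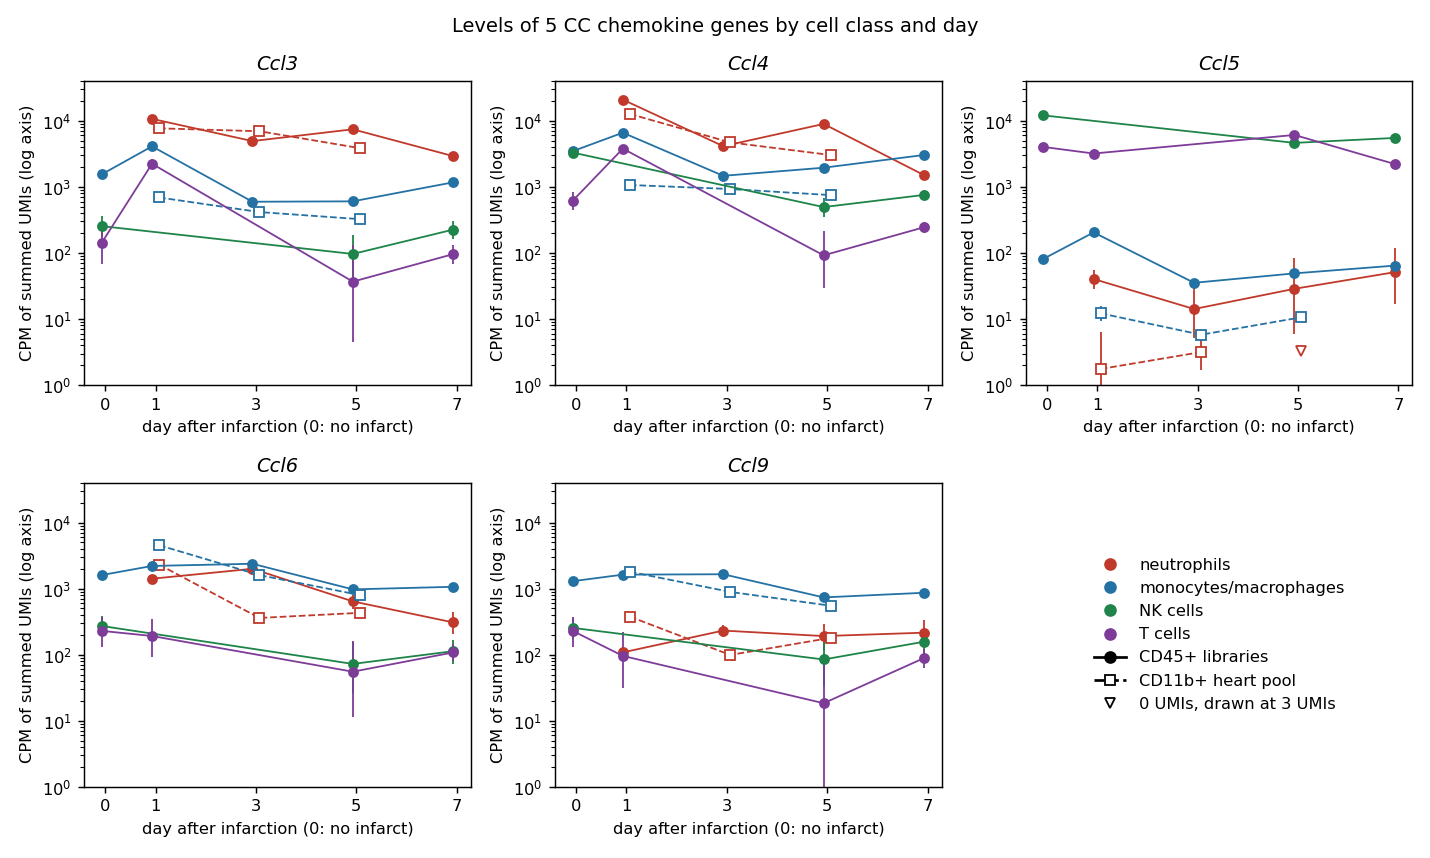
Level of each gene (CPM of summed UMIs, log axis) against day after infarction, by cell class (colours) in the CD45+ libraries (filled circles) and the CD11b+ heart pool (open squares); bars are exact Poisson 95% intervals and cover counting error only, and lines join days of 1 experiment. Ccl3 and Ccl4 are highest in day 1 neutrophils (10706 and 20902 CPM), Ccl5 in NK and T cells, and Ccl9 in monocytes/macrophages.

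Ccl5 was highest in the lymphocytes. NK cells held 12075 CPM at day 0 (27 cells), 4633 at day 5 (18 cells) and 5504 at day 7 (41 cells). T cells held 4022 CPM at day 0 (14 cells), 3198 at day 1 (16), 6109 at day 5 (13) and 2214 at day 7 (95). The NK and T ranges overlap. Monocytes/macrophages held 81.5, 205, 35.3, 49.1 and 64.4 CPM at days 0 to 7, and 12.2, 5.79 and 10.6 CPM in the heart pool. The CD45+ neutrophils held 40.3, 14.2, 28.7 and 51.2 CPM at days 1 to 7, the last 3 values from 6, 3 and 5 UMIs. In pool neutrophils Ccl5 stood at 1.75 and 3.16 CPM at days 1 and 3, and no UMI was found in the 222 cells of day 5, which allows a level of up to 3.33 CPM. No neutrophil or monocyte/macrophage sum came within 10 times of the lowest of these NK and T levels.

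A Ccl5 UMI was found in 97.8% of NK cells (exact 95% interval 92.3 to 99.7%), 40.8% of T cells (32.7 to 49.4%), 24.2% of CD45+ monocytes/macrophages and 9.15% of CD45+ neutrophils. B cells, with 13.4% before thinning and a level of 48.2 CPM, set the background. After thinning, the shares were 95.5% in NK cells, 34.0% in T cells, 8.44% in monocytes/macrophages and 5.29% in neutrophils. Among T cells the tenth with the most Ccl5 held 75.4% of its UMIs, against 34.1% among NK cells. A small dendritic cluster led by Fscn1 and Ccr7, genes of mature dendritic cells, also held Ccl5 at 5607 CPM (29 cells), while the larger Cd209a cluster (132 cells) held 379 CPM.

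NK and T cells held less of the other members. Ccl4 in NK cells was 3309 CPM at day 0, 495 at day 5 and 755 at day 7, and in T cells 615, 3792, 92.0 and 245 CPM at days 0, 1, 5 and 7. The 16 T cells of day 1 stood out also for Ccl3, at 2241 CPM, against 143, 36.8 and 96.0 CPM on the other days. Neutrophils of that day 1 library held Ccl3 at 10706 and Ccl4 at 20902 CPM. The part of background UMIs in the day 1 T cell levels was not tested. As a background, CD45+ B cells held Ccl3 at 134, Ccl4 at 334, Ccl6 at 129 and Ccl9 at 105 CPM. Of these 1019 B cells, 964 were from day 7 and 13 from day 1, so this background does not describe the day 1 library. The Ccl3 and Ccl4 levels of T cells at days 5 and 7 lay below the B cell levels. Over all CD45+ libraries, Ccl6 and Ccl9 stood near the B cell levels, at 127 and 101 CPM in T cells and 147 and 164 CPM in NK cells. Monocyte/macrophage markers reached 11405 and 13324 CPM in the NK sums of days 0 and 7 and 8034 CPM in the T sum of day 7, with 24 to 26 of 29 detected, and their part in the lymphoid levels was not tested. The 5 genes' UMIs in NK cells were 79.3% Ccl5 and 15.1% Ccl4.

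Ccl6 and Ccl9, the rodent Ccr1 ligands, were found in almost every monocyte/macrophage. A Ccl6 UMI was present in 93.4% of those of the CD45+ libraries and 96.6% of those of the pool, and a Ccl9 UMI in 91.7% and 94.0%. In B cells the shares were 31.8% and 27.2%. Ccl6 stood at 1602, 2200, 2375, 972 and 1064 CPM at days 0, 1, 3, 5 and 7, and at 4539, 1599 and 798 CPM in the pool at days 1, 3 and 5. Both day 5 values were lower than any value of day 1 or day 3. Ccl9 followed with 1294, 1625, 1649, 735 and 864 CPM, and 1797, 890 and 550 CPM in the pool, again with day 5 the lowest in each experiment.

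Neutrophils shared Ccl6 but held little Ccl9. Their Ccl6 level was 1410, 1993, 640 and 307 CPM at days 1, 3, 5 and 7 of the CD45+ libraries and 2307, 359 and 429 CPM in the pool. The 2 experiments parted at day 3, where the CD45+ value was the highest and the pool value the lowest of its series. Ccl9 in neutrophils was 108, 231, 191 and 215 CPM in the CD45+ libraries and 376, 98.9 and 180 CPM in the pool, below the monocytes/macrophages on every day. Its share of neutrophils with a UMI, 36.4% and 21.8%, stood against 27.2% in B cells.

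Classes were compared in 1 model of the 12 sums of both classes at days 1, 3 and 5, with the library or hashtag as a block (edgeR quasi-likelihood, Benjamini-Hochberg adjustment over all genes). Mice were pooled within each sum and each day had 1 sum an experiment, so the spread is that between 6 pairs of sums. Here 4813 of 8531 genes differed, a background of 56.4% (25.1% higher and 31.3% lower in neutrophils), and 4 of the 5 members passed, 2 in each direction. Ccl3 was higher in neutrophils by 3.59 ± 0.30 on the log2 scale (SE; adjusted p = 7.4e-08) and Ccl4 by 2.57 ± 0.31 (4.6e-06). Ccl9 was lower, with a difference of -2.23 ± 0.24 (1.5e-06), and Ccl5 was lower, with -1.33 ± 0.34 (0.00339). CD45+ B cells, the background, held Ccl5 at 48.2 CPM, within the ranges of CD45+ monocytes/macrophages (35.3 to 205 CPM) and neutrophils (14.2 to 51.2 CPM). The part of background UMIs in the Ccl5 difference was not tested. Ccl6 differed by -0.52 ± 0.26, which did not pass (0.0998). In CPM, Ccl3, Ccl4, Ccl5 and Ccl9 each differed in that direction in 6 of 6 pairs, while in UMIs per cell Ccl4 was higher in neutrophils in 3 of 6. Scaling to total counts alone moved the median over all genes from -0.13 to -0.56 and brought Ccl6 past the threshold (-0.92, adjusted p = 0.00478). Naming cells by their own marker UMIs ended the Ccl5 call (-0.78, adjusted p = 0.192).

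**Figure D2:**
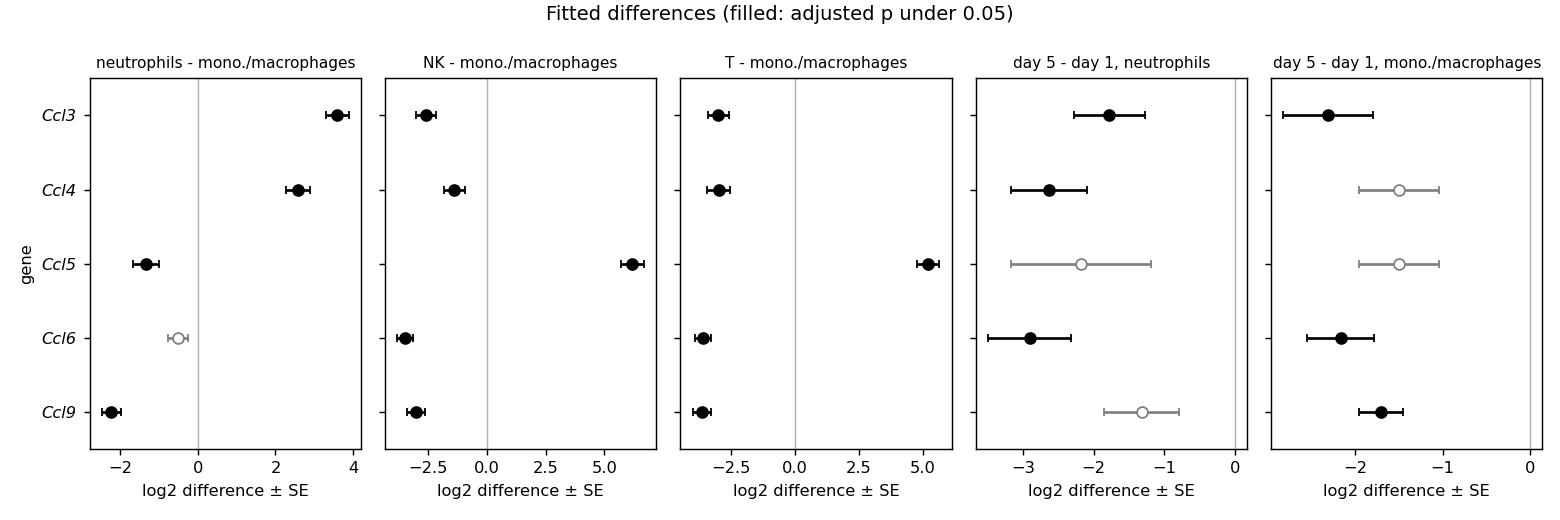
Fitted log2 difference of each gene (point) with its SE (bar) in 5 comparisons, 1 a panel, each with its own axis; filled points have an adjusted p under 0.05. Ccl3 and Ccl4 lie to the right of 0 in neutrophils against monocytes/macrophages (3.59 and 2.57), Ccl5 to the right in NK and T cells (6.19 and 5.20), and all 5 genes lie to the left in both comparisons of day 5 with day 1.

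For the lymphocytes, 12 sums of at least 10 cells (5 of monocytes/macrophages, 3 of NK and 4 of T cells) were fitted with the library as a block. Since these libraries are different days, the spread holds differences between days. NK cells differed from monocytes/macrophages in 1383 of 4589 genes (30.1%) and in all 5 members. Ccl5 was higher by 6.19 ± 0.50 (edgeR adjusted p = 9.8e-08), and Ccl3 (-2.58 ± 0.42), Ccl4 (-1.39 ± 0.45), Ccl6 (-3.46 ± 0.34) and Ccl9 (-3.00 ± 0.38) were lower, with adjusted p from 1.3e-06 to 0.0268. The Ccl4 call was lost without the day 7 library (-0.92, adjusted p = 0.355), without the day 5 library (-1.10, 0.116) and with total-count scaling (-1.07, 0.0936). T cells differed in 1715 genes (37.4%) and again in all 5 members, with Ccl5 higher by 5.20 ± 0.45 (2.3e-07) and the other 4 lower by fitted differences of -3.65 to -2.99. Between NK and T cells, 110 genes differed (2.40%) and none of the 5 members; DESeq2 called 0, and 2 had an unadjusted edgeR p under 0.05. Ccl4 was higher in NK cells by 1.60 ± 0.49 (adjusted p = 0.139) and Ccl5 by 0.99 ± 0.40 (0.363), which did not pass with 3 NK and 4 T sums.

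Time was compared within each class over days 1, 3 and 5, with the 2 experiments as the replicates and experiment as a term. In neutrophils Ccl4 fell from day 1 to day 3 by 2.50 ± 0.54 on the log2 scale (edgeR adjusted p = 0.0192), as 1 of 5 members where 155 of 6172 genes (2.51%) passed, 1.96% with a fall. From day 1 to day 5, 3 of 5 members fell where 468 genes (7.58%, 5.54% with a fall) passed: Ccl6 by 2.90 ± 0.59 (0.00768), Ccl4 by 2.63 ± 0.54 (0.00831) and Ccl3 by 1.77 ± 0.50 (0.0389). Ccl5 and Ccl9, with -2.18 ± 0.99 (0.190) and -1.32 ± 0.53 (0.137), did not pass. At day 3 Ccl3, Ccl5, Ccl6 and Ccl9 differed from day 1 by -1.63 to -1.13, with adjusted p from 0.160 to 0.434. Day 5 against day 3 gave 0 of 6172 calls in edgeR, with 125 genes at an unadjusted p under 0.05, and no member passed in edgeR or DESeq2.

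Several settings bear on these neutrophil changes. Total-count scaling shifted the median over all genes up by 0.68 (day 3) and 0.90 (day 5), and under it Ccl4 differed by -1.81 (adjusted p = 0.0426) and -1.57 (0.0354), Ccl6 at day 5 by -1.94 (0.0355), and Ccl3 at day 5 by -0.72 (0.236). Without the 40 CD45+ neutrophils of day 5 the day 5 adjusted p became 0.206 for Ccl3, 0.0548 for Ccl4 and 0.238 for Ccl6, and without the pool's day 5 cells 0.249, 0.129 and 0.177. The day 3 change of Ccl4 lost its call without the CD45+ library of day 3 (-1.92, 0.350) and without the pool's day 3 cells (-3.15, 0.0631). At a clustering resolution of 1.0, or with cells named by their own marker UMIs, no neutrophil change was called. Without the experiment term no member was called over days in either class.

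In monocytes/macrophages no member was called from day 1 to day 3, where 92 of 10596 genes (0.868%) passed in edgeR: the differences were -2.08 ± 0.52 for Ccl3, -1.46 ± 0.46 for Ccl4, -2.19 ± 0.47 for Ccl5, -0.97 ± 0.38 for Ccl6 and -0.73 ± 0.25 for Ccl9, with adjusted p from 0.106 to 0.264. All 5 had an unadjusted p under 0.05, and DESeq2 called 3 of them, Ccl3, Ccl4 and Ccl5. From day 1 to day 5, 1090 genes (10.3%, 5.88% with a fall) passed and 3 of 5 members fell: Ccl9 by 1.70 ± 0.25 (0.0183), Ccl6 by 2.17 ± 0.38 (0.0280) and Ccl3 by 2.31 ± 0.51 (0.0452). Ccl4 (-1.50 ± 0.46, adjusted p = 0.0874) and Ccl5 (-1.50 ± 0.46, 0.0884) did not pass in edgeR and passed in DESeq2. Day 5 against day 3 gave 3 calls (0.0283%), none of them a member. Neutrophil markers were lower alongside, from 19274 to 436 CPM in the CD45+ sums and from 2152 to 628 CPM in the pool between days 1 and 5. Without the day 1 CD45+ library the fitted change of Ccl3 was -1.14, and without the day 1 pool cells it was -3.14. Each of these fits left 1 sum at day 1 and so measured no spread for that day. The part of the neutrophil marker UMIs in these changes was not tested. The Ccl3 call was lost without the CD45+ library of day 5 (-1.87, 0.183) and with total-count scaling (-2.05, 0.0596), which moved the median of all genes by 0.23, and the Ccl6 call without the pool's day 5 cells (-1.92, 0.0517).

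Whether time acted differently in the 2 classes was tested as the interaction. In edgeR, 2, 81 and 0 of 10154 genes passed for days 3 and 5 against day 1 and day 5 against day 3 (0.0197%, 0.798% and 0%), with 1153, 1672 and 363 genes at an unadjusted p under 0.05, and 0 of the 15 member tests passed in edgeR or DESeq2, with 0 at an unadjusted p under 0.05 in edgeR. This does not show that the classes changed alike. Leaving out the day 1 cells of either experiment changed the number of member calls. Such a fit kept 1 sum of each class at day 1 and so measured no spread for that day.

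The classes were not made of the same clusters on each day. Of the 216 CD45+ neutrophils of day 1, 214 were in cluster 12, led by Ngp, a granule gene of immature neutrophils, and Retnlg, and 131 of the 135 of day 3 were in cluster 11, led by G0s2 and Il1r2. Ccl3 was 10624 CPM in cluster 12 and 4764 CPM in cluster 11, and Ccl4 20507 and 4210 CPM. In the heart pool 89.8% of day 1 neutrophils were in cluster 5, led by Retnlg, and 76.6% of day 3 and 64.9% of day 5 neutrophils in cluster 4, led by Tnf and Icam1, with Siglecf at 263 CPM.

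Within pool cluster 5 alone, Ccl4 was 13214 CPM at day 1, 3748 at day 3 and 3084 at day 5, and Ccl6 2404, 846 and 1018 CPM. Within cluster 4, Ccl4 was 5529, 5035 and 3014 CPM, and Ccl6 977, 195 and 171 CPM, with 26 cells at day 1. Day 1 was thus the highest for both genes in each cluster. Ccl3 was 7746, 5273 and 3174 CPM in cluster 5, and 6970, 7519 and 4160 CPM in cluster 4, where day 3 was above day 1. On each day Ccl6 was lower in cluster 4 than in cluster 5, whereas Ccl3 was lower in cluster 4 at day 1 and higher there at days 3 and 5.

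Monocytes/macrophages, too, lay in other clusters on other days. Of the 245 CD45+ cells of day 1, 236 were in cluster 10, led by Saa3, Cxcl3 and Arg1, while 445 of 632 at day 3 were in cluster 13 (Plac8, Chil3, Ly6c2) and 463 of 732 at day 5 in cluster 7 (Gpnmb, Trem2, Spp1). Ccl3 was 4216 CPM in cluster 10, 466 in cluster 13 and 845 in cluster 7. Cluster 0, led by Hspa1a, Mgl2, Cbr2 and Folr2 and with Atf3 also among its leading genes, had 508 of its 594 cells from day 0 and held 1717 CPM of Ccl3 and 3963 CPM of Ccl4. Hspa1a and Atf3 are early-response genes, and their part in these levels was not tested. Ccl6 had another order. It was highest in the clusters led by Saa3, Fn1 and Arg1, at 3860 CPM in CD45+ cluster 1 (159 cells) and 5142 CPM in pool cluster 6 (144 cells), against 789 CPM in CD45+ cluster 7 and 1058 CPM in pool cluster 1 (1199 cells), which is also led by Gpnmb and Fabp5.

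Within the 5 macrophage clusters given here, both genes were lower at day 5 than at day 3, while day 7 was not always lower than day 5. Other clusters with cells on both days, among them pool cluster 1 (410 cells at day 3 and 781 at day 5), are not given. In pool cluster 0 (Plac8, Chil3, Ccr2) Ccl6 was 3866, 1480 and 1109 CPM at days 1, 3 and 5, and in pool cluster 6 it was 7272, 5616 and 2389 CPM. Ccl9 in the same clusters was 1708, 975 and 860 CPM, and 2178, 1957 and 1226 CPM, so these 4 series were lower on each later day. In CD45+ cluster 1 Ccl6 was 3727, 2703 and 4971 CPM and Ccl9 1561, 828 and 1866 CPM at days 3, 5 and 7. In CD45+ cluster 13 Ccl6 was 2203, 1631 and 1747 CPM and Ccl9 1767, 1196 and 1843 CPM. Day 5 was the lowest in these 4 series, and day 7 was the highest in all of them except Ccl6 of cluster 13. In CD45+ cluster 7 Ccl6 was 2024, 643 and 523 CPM and Ccl9 1255, 572 and 587 CPM. These values have no replicate.

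**Figure D3:**
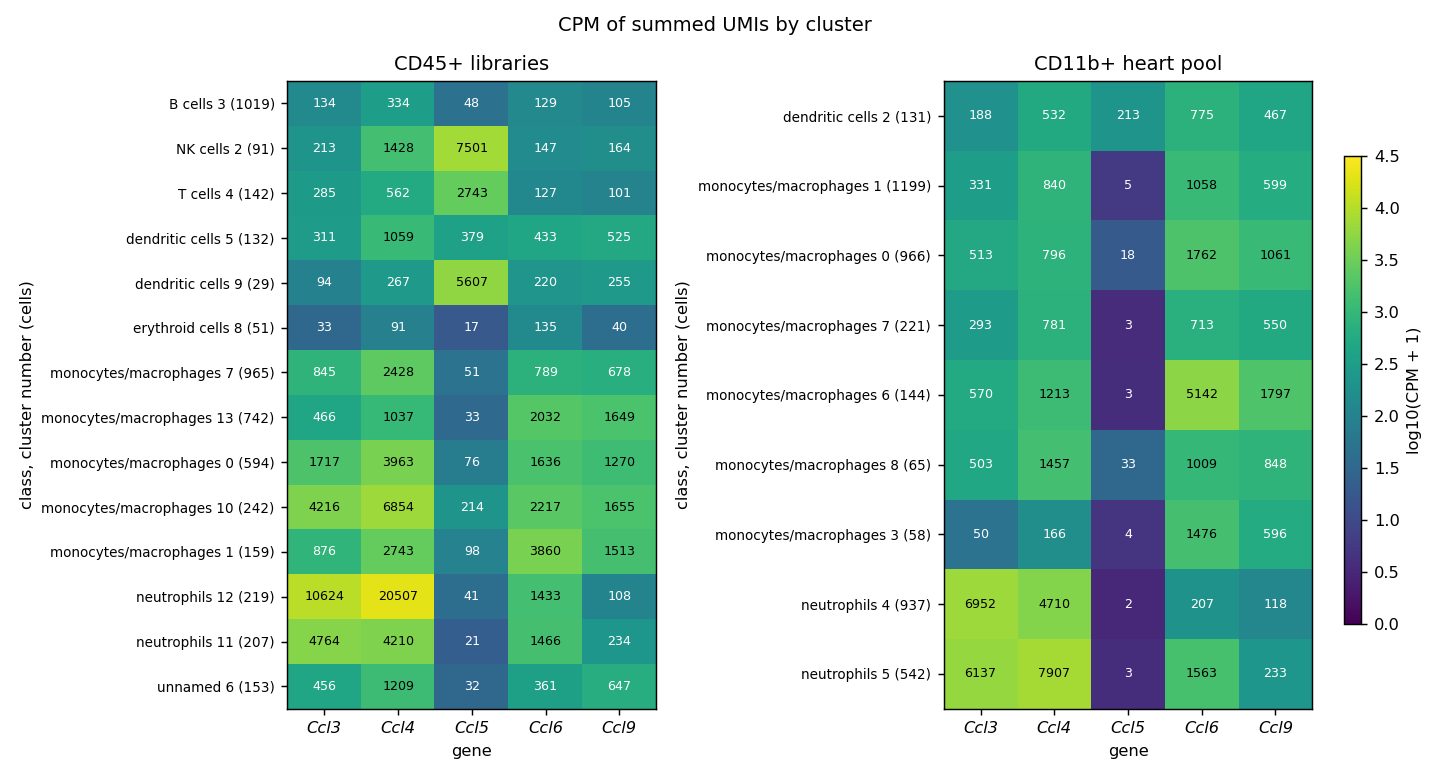
Level of the 5 genes (columns; CPM printed, colour log10 of CPM + 1) in each cluster of the CD45+ libraries (left) and the CD11b+ heart pool (right), with class, cluster number and cells. The neutrophil clusters carry the highest Ccl3 (4764 to 10624 CPM), NK cells the highest Ccl5 (7501 CPM), and the Saa3-led macrophage clusters 1 (left) and 6 (right) the highest Ccl6 (3860 and 5142 CPM).

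Likeness of pattern was measured as Pearson's r of log2(CPM + 1) over 21 class sums (6 of neutrophils, 8 of monocytes/macrophages, 4 of dendritic cells, 1 each of B, NK and T cells), which share libraries. It describes these sums and was not tested. Ccl3 and Ccl4 had an r of 0.94 and Ccl6 and Ccl9 of 0.74, while Ccl3 had -0.61 with Ccl5 and -0.04 with Ccl9. The nearest genes were taken from 2501 genes of at least 50 CPM on average, a number that includes the members, which were not ranked. Those nearest to Ccl3 were Cxcl2 (0.94), a neutrophil-attracting chemokine, Gpr84 (0.94), a receptor for medium-chain fatty acids, and Il1a (0.94), interleukin 1 alpha. Nearest to Ccl4 were Cxcl2, Cd14 and Fpr1, a receptor for formyl peptides, at 0.86 each. Nearest to Ccl5 were Cd7 (0.87), Rrad (0.86) and Serpinb9 (0.85), an inhibitor of granzyme B. Nearest to Ccl6 were Ifi204 (0.91), Slc11a1 (0.91) and Plin2 (0.87), and to Ccl9 Fcgr1, Pf4 and Pid1 (0.89 each). The nearest genes depended on the measure: by Spearman's rho they were Ctsc, Tgfbi and Mnda for Ccl9, none of them shared, and Rrad, Ccr7 and Ndufa6 for Ccl5, with only Rrad shared. An r was also taken across all cells of 1 class and experiment, with days and clusters together, so it holds differences between these as well. Ccl3 and Ccl4 had an r of 0.70 and 0.64 in monocytes/macrophages and 0.64 and 0.53 in neutrophils (CD45+ and pool). Ccl6 and Ccl9 had 0.57 and 0.65 in monocytes/macrophages but 0.06 and 0.16 in neutrophils, where Ccl9 is sparse.

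The receptor genes Ccr1 and Ccrl2 were higher in neutrophils than in monocytes/macrophages. Ccr1, which Ccl3, Ccl5, Ccl6 and Ccl9 bind, was higher by 2.51 ± 0.21 (edgeR adjusted p = 1.1e-07, against a median of -0.13 over all genes), and Ccrl2, an atypical receptor of the same family, by 3.34 ± 0.24 (1.8e-08). From day 1 to day 5, Ccr1 fell in monocytes/macrophages by 1.78 ± 0.20 (0.00966). In neutrophils it differed by -1.12 ± 0.43 over the same days, which did not pass (0.120). Both genes were lower in NK and in T cells than in monocytes/macrophages, Ccr1 with -3.90 ± 0.60 and -3.22 ± 0.45 and Ccrl2 with -1.79 ± 0.38 and -2.53 ± 0.38 (adjusted p from 3.0e-05 to 0.00158).

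Other CC chemokines did not share the neutrophil pattern. Of 14 listed, 6 were tested between the classes, and 5 were lower in neutrophils and 0 higher (median -3.12), where 31.3% of all genes were lower and the median over all genes was -0.13. These were Ccl2 (-2.91 ± 0.38), Ccl7 (-3.33 ± 0.24), Ccl8 (-2.12 ± 0.64), Ccl12 (-3.97 ± 0.22) and Ccl24 (-4.83 ± 0.41), most of them attractants of monocytes. In monocytes/macrophages 3 of 8 tested fell from day 1 to day 5, against 5.88% of all genes: Ccl2 by 2.67 ± 0.18, Ccl7 by 1.38 ± 0.20 and Ccl24 by 3.26 ± 0.52, and Ccl8 rose by 5.98 ± 1.10. In NK and T cells all 5 tested were lower than in monocytes/macrophages, where 30.1% and 37.4% of all genes differed in either direction.

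Early inflammatory genes that NF-kB induces were, like Ccl3 and Ccl4, mostly higher in neutrophils. Of 12, 11 were higher and 1 lower in neutrophils (median 2.31), where 25.1% of all genes were higher and their median was -0.13. Among the 11 were Cxcl2 (2.42 ± 0.28), Il1b (2.43 ± 0.32), which encodes interleukin 1 beta, and Nfkbia (2.27 ± 0.25), which encodes an inhibitor of NF-kB. Cxcl1 was the gene that was lower (-1.05 ± 0.29). In monocytes/macrophages 9 of 12 fell from day 1 to day 5 and 0 rose (median -1.07 against -0.02), where 5.88% of all genes fell, with Cxcl2 falling by 2.22 ± 0.21 and Il1b by 2.04 ± 0.17. From day 1 to day 3, Cxcl2, Il1a, Il1b and Ptgs2 fell there. In neutrophils 2 of 12 fell from day 1 to day 5 (median -0.77 against -0.03), where 5.54% of all genes fell: Cxcl3 fell by 5.44 ± 0.57 and Il1a by 1.71 ± 0.43. Of 8 cytotoxic lymphocyte genes, 7 were tested and all 7 were higher in NK and in T cells than in monocytes/macrophages, as Ccl5 was. Of those 7, 6 were higher in NK than in T cells, with Gzma, encoding granzyme A, higher by 4.00 ± 0.73 and Klrd1, encoding an NK receptor chain, by 2.60 ± 0.51. Gzma and Prf1 were on the marker list that named NK cells. Gzma, Nkg7, Xcl1, Gzmb, Ctsw and Klrd1 were among the leading genes of the NK cluster, and Nkg7 of the T cluster. Their higher levels there follow from how the classes were formed and are no separate evidence.

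The pool of blood and mechanically dissociated heart had little Ccl3 and Ccl4. Over its 7 hashtags, Ccl3 in neutrophils (6337 cells) ran from 2.45 to 98.7 CPM with a median of 7.74, and in monocytes/macrophages (3476 cells) from 1.92 to 19.7 CPM with a median of 3.08. Ccl4 ran from 5.13 to 183 CPM (median 13.4) and from 1.98 to 40.0 CPM (median 3.20). The lowest heart value of the other experiments was 2919 CPM for Ccl3 and 1506 CPM for Ccl4 in neutrophils, and 325 and 750 CPM in monocytes/macrophages. No hashtag reached these levels. A Ccl3 UMI was found in 2.71% of neutrophils and 3.6% of monocytes/macrophages.

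Within that pool, hashtags 6 and 7 gave the highest neutrophil Ccl3 (46.8 and 98.7 CPM) and Ccl4 (183 and 75.8 CPM), and the next highest were hashtag 1 with 11.5 and 26.3 CPM. The neutrophil cluster led by Cxcl2 and Il1r2 held 541 cells, 273 of hashtag 6 and 246 of hashtag 7, with Ccl3 at 123 CPM and Ccl4 at 249 CPM. In monocytes/macrophages the same 2 hashtags were the highest for Ccl3 (19.7 and 8.72 CPM) and Ccl4 (40.0 and 33.4 CPM).

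Ccl6 behaved otherwise. It was present in 91.7% of neutrophils and 96.0% of monocytes/macrophages of this pool, at 957 to 2927 CPM (median 2406) in neutrophils and 718 to 1454 CPM (median 851) in monocytes/macrophages. These ranges overlap those of the heart experiments, and here neutrophils were above monocytes/macrophages in 6 of 7 hashtags, hashtag 7 being the exception with 957 against 1357 CPM. Ccl9 stood at 466 to 986 CPM (median 624) in monocytes/macrophages and 26.3 to 45.1 CPM (median 32.1) in neutrophils. Ccl5 was at most 1.12 CPM in neutrophils and 0.509 to 18.1 CPM in monocytes/macrophages.

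The experiments differ in tissue, preparation, sort and chemistry, which cannot be told apart here. A list of 10 early-response genes (Fos, Fosb, Jun, Junb, Egr1, Atf3, Hspa1a, Hspa1b, Ier2 and Dusp1), which are known to rise fast in handled tissue and were chosen after the data were seen, was summed beside these levels. In neutrophils the sum was 2654 to 3501 CPM in the blood and heart pool, 3625 to 8148 CPM in the CD45+ libraries and 8843 to 12722 CPM in the heart pool. In monocytes/macrophages it was 766 to 1525, 3563 to 17198 and 3737 to 4777 CPM, with the highest value at day 0, where Hspa1a alone reached 3425 CPM. The part of these genes' response in the levels of Ccl3 and Ccl4 was not tested.

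**Figure D4:**
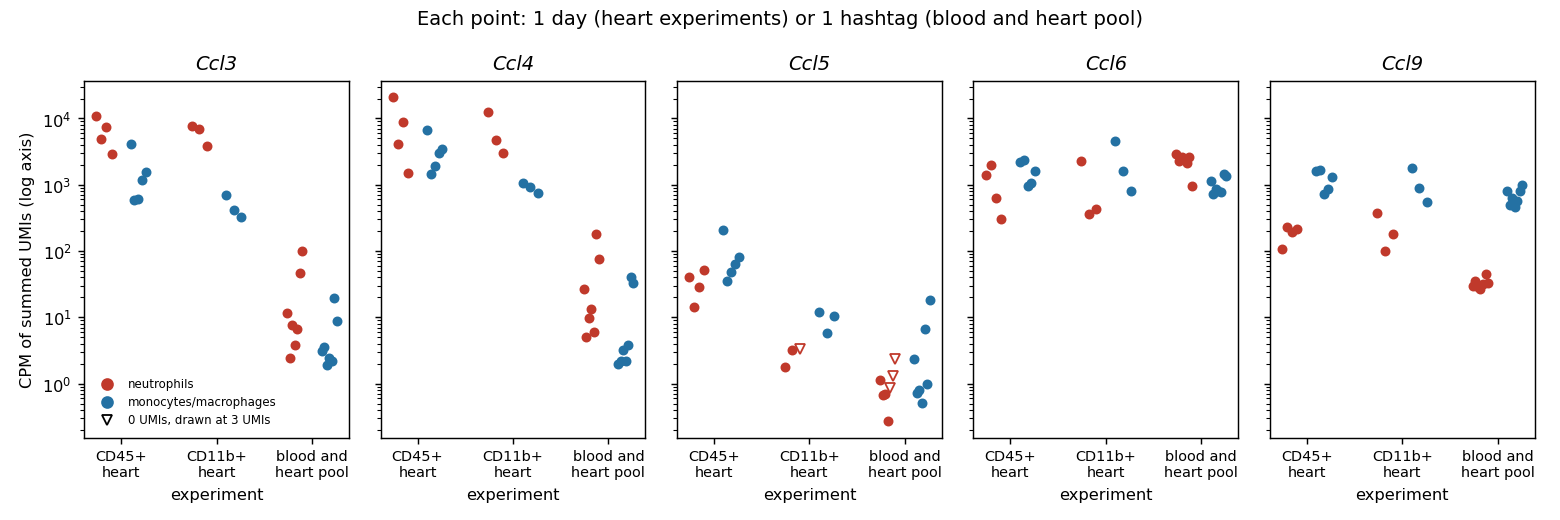
Level of each gene (CPM of summed UMIs, log axis) in neutrophils (red) and monocytes/macrophages (blue) of the CD45+ libraries, the CD11b+ heart pool and the blood and heart pool; each point is 1 day or, in the last, 1 of 7 hashtags, and open triangles mark 0 UMIs, drawn at 3 UMIs. Ccl3 and Ccl4 of the blood and heart pool lie below every point of the heart experiments, while Ccl6 overlaps them (957 to 2927 CPM in neutrophils).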

How the data were processed

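The matrices hold UMI counts per gene and barcode as deposited by the authors, with no normalization; Cell Ranger and build mm10 (GRCm38) are named in the submitters' processing notes, and version 3.0.2 in 2 matrix headers, per the file headers. Barcodes with under 200 genes or over 10% mitochondrial UMIs, scrublet doublets (18) and barcodes with several or no hashtags were left out. Cells were clustered with scanpy 1.11.5 (2000 variable genes without the members, 30 components, 15 neighbours, Leiden resolution 0.5) and named from marker lists. UMIs were summed per class and library or hashtag (at least 30 cells) and tested with edgeR 4.0.16 in R 4.3.3 (TMM, quasi-likelihood, adjusted p under 0.05), with DESeq2 1.42.0 as an alternative. NK and T cells had 1 sum of 30 cells each, so their minimum was lowered to 10 cells after the data were seen. Intervals are exact, at 95%, and cover counting error only; a count of 0 allows 3 counts. Each day had 1 sum an experiment, so the experiment, library or hashtag was the block. Named genes are the 5 members, the 3 nearest genes of each, and from each list the 3 most abundant and those called where 5 or fewer were. The fits were tested on simulated data. The members and lists were chosen with earlier results of these data known. Antibody counts and the blood and heart hashtags entered no test. Some receptor results are not reported here.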

Additional observations from a re-analysis of the deposited data

Results flagged for a closer look

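In the blood and heart pool, which entered no comparison, a cluster of 42 cells named mast cells and basophils from Cpa3, Ms4a2 and Gata2 held more of 4 members than any neutrophil or monocyte/macrophage sum of that pool. Ccl6 stood at 7214 CPM (exact Poisson 95% interval 6819 to 7626), above a highest upper bound of 2984 CPM elsewhere. Ccl9 stood at 3253 CPM (2990 to 3534), above 1015 CPM. Ccl3 stood at 1624 CPM (1439 to 1825), above 118 CPM, and Ccl4 at 765 CPM (640 to 908), above 201 CPM. A Ccl3 UMI was found in 97.6% of these cells, and a Ccl5 UMI in 0 of 42. They came from 6 of the 7 hashtags, with 12 of them from hashtag 1.

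T cells of the same pool (59 cells, hashtags 1 to 5) held Ccl5 at 4824 CPM (4626 to 5030), above the highest upper bound of 22.4 CPM in neutrophils and monocytes/macrophages. A Ccl5 UMI was found in 22.0% of them, and the tenth of cells with the most held 85.3% of the UMIs.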

How the results depend on the processing

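Of 21 member changes or class differences that passed, 9 kept their call in every alternative run, and none changed sign in 284 alternative values; of the 611 alternative values of results that did not pass, 51 changed sign. Without the replicate block (experiment or library), the number of member calls was 0 in neutrophils over days (4 with it), 0 in monocytes/macrophages over days (3 with it) and 6 among the NK and T cell contrasts (10 with it), and Ccl3 in NK against T cells became -1.65. Over days, neutrophils gave 0 member calls at resolution 1.0, where 967 pool cells lost their neutrophil name, and 0 with cells named by their own markers. Monocytes/macrophages gave 8 with DESeq2 and 7 without a filter on low counts. The share of all genes called in the alternative runs is not given here, so these counts describe the members alone. Leaving out 1 library or hashtag gave 1 to 7 member calls in neutrophils, 3 to 11 in monocytes/macrophages and 0 to 3 for the interaction (0 in the full fit); a day left with 1 sum borrows the spread of the rest. The cause of these moves was not tested. Among differences from day 1 and between classes that did not pass, those that changed sign on leaving out 1 library or hashtag were Ccl5 (-2.27 to 0.62) and Ccl9 (-2.24 to 0.062) at day 3 and Ccl9 (-2.12 to 0.18) at day 5, all in neutrophils against day 1. A mitochondrial limit of 20%, or clustering with the members, moved no call. Depth limits Ccl5 in neutrophils, where 0 to 35 UMIs were counted a sum.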
